A study of Homo sapiens with 9 samples.

Results

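Messenger RNA of 40 genes of homologous recombination, the Fanconi anaemia pathway, mismatch repair and damage checkpoint signalling was measured in HCT116. This established line of human colorectal carcinoma is known for deficient mismatch repair. The genes were chosen by name from the 58735 genes of the expression table, and each of the 40 was found. The rule uses no measured value, but earlier results of these data were known when the genes were chosen. The groups were HCT116 cells of genotype A20-WT (WT), A20-KO, and A20-OE, with 3 RNA-seq libraries each, and the labels name no drug or other treatment. For the knockout the study used a guide RNA in a lentiviral CRISPR vector and puromycin selection. Its methods name the remaining cells sequenced as knockout cells with A20 restored, and A20-OE was taken to be these, although the labels do not state that A20-OE derives from A20-KO. The comparison asks which genes follow A20, an enzyme that edits ubiquitin chains and restrains inflammatory signalling. The sources used here do not state whether the A20-KO cells are a single clone, whether WT cells carried an empty vector, or whether the 3 libraries of a group came from separate cultures, so p-values measure only the spread between these libraries.

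Homologous recombination repairs a broken chromosome by copying the intact sister. Nucleases trim the break, BRCA2 and the recombinase paralogs load the recombinase, and helicases resolve the joined molecules. The Fanconi anaemia pathway removes crosslinks between the strands of DNA by attaching ubiquitin to the FANCD2 and FANCI pair at a stalled fork, while mismatch repair removes bases misplaced by the replicating polymerase. Many of these genes are known to be transcribed most as cells enter S phase, in part through E2F factors, and colorectal tumours with defective mismatch repair accumulate errors in repeated sequence.

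The E2F motif was searched, on both strands, as TTTCCCGC, TTTGGCGC, TTTCGCGC, and TTTGCCGC in RefSeq promoter windows of 300 bases (250 before to 50 after the gene's start, GRCh38.p14), which matched 37 of the 40 genes by symbol. A match was found in 9 of the 37 (24.3%), against 3.99% of 27305 promoters of all genes. That wider set was not limited to genes detected in these cells, whereas the 37 were all detected, so the shares are not of like sets. The matched stretches are shown because they carry the sequence that set these 9 promoters apart from most, each read 5′ to 3′ on the strand of its gene, with the matched bases in capitals and 8 bases on either side.
EXO1, chr1:241848200-241848223, plus strand: ggtcagccTTTCGCGCgctgtgta
MSH6, chr2:47783140-47783163, plus strand: cccccagaTTTCCCGCcagcagga
FANCD2, chr3:10026427-10026450, plus strand: cgggcctgGCGGGAAAgtcgaaaa
TOPBP1, chr3:133661933-133661956, minus strand: cgcggttgGCGCGAAAgtcggttc
XRCC2, chr7:152676105-152676128, minus strand: cgttggtgGCGGGAAAgttgagtc
FANCA, chr16:89816804-89816827, minus strand: acaccgcgGCGGCAAAgccaaacg
PMS2, chr7:6009134-6009157, minus strand: gaagtattTTTGCCGCcccgcccg
MSH3, chr5:80654537-80654564, plus strand: cggtcaagTTTGGCGCGAAAttgtggcc
FANCC, chr9:95317866-95317889, minus strand: gggcttccGCGCGAAAccgggaac
FANCC, chr9:95317740-95317763, minus strand: gtcggaatTTTCCCGCgacgccgc
The matches in EXO1, MSH6, and XRCC2 began 4, 3, and 21 bases after the start, those in FANCD2 and TOPBP1 lay across it, and those in FANCA, PMS2, MSH3, and FANCC lay 172, 100, 107, 172, and 46 bases before it. In MSH3 a pair of matches on opposite strands overlapped, and FANCC held 2 separate matches. The RefSeq start of a gene can lie inside the longer gene model of the expression table, as for MSH6 and FANCC.

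Each library held 23406222 to 24963691 reads, recovered from the deposited FPKM (fragments on a gene, scaled by its length and the depth of the library). Mitochondrial genes took 8.79% ± 1.298 of them in WT, 10.4% ± 1.36 in libraries labelled A20-KO, and 12.7% ± 1.08 in A20-OE (SD, n = 3). TNFAIP3, which encodes A20, was at 0.869, 0.8002, and 0.736 FPKM in WT, 1.93, 2.16, and 1.04 FPKM in libraries labelled A20-KO, and 58.7, 66.5, and 56.5 FPKM in A20-OE. In libraries labelled A20-KO its log2 fold change against WT was 0.95 (SE 0.23, adjusted p = 0.018, limma), so they did not hold less TNFAIP3 mRNA, and every direction given below for them rests on that label. For brevity the comparisons are written A20-KO against WT, A20-OE against A20-KO, and A20-OE against WT, in which A20-KO stands for the libraries so labelled. Of 11 colorectal epithelial markers 9 were at a mean of at least 1 FPKM in each group, with a summed level of 1139 to 1553 FPKM in WT, 1830 to 2416 FPKM in libraries labelled A20-KO, and 1832 to 2409 FPKM in A20-OE, while the intestinal markers CDX1 and VIL1 were at or near 0. Blood cell markers summed to at most 0.474 FPKM and endothelial markers to at most 0.429 FPKM. Fibroblast markers summed to 4.603 to 5.86 FPKM in WT, 12.6 to 15.1 FPKM in libraries labelled A20-KO, and 11.1 to 12.3 FPKM in A20-OE, nearly all of it COL1A1, with COL1A2, DCN, and LUM at or near 0.

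Most of the repair genes were highest in WT and lowest in A20-OE. In A20-KO against WT all 40 had a lower mean log2 level, by any amount, and for 28 of the 40 it was lower again in A20-OE. Over all 21636 genes tested, 10902 were lower in A20-KO against WT and 10503 in A20-OE against A20-KO. Of the 40, 24 passed the test, each downward, where passing means an adjusted p under 0.05 by limma on log2(FPKM + 0.1), with the Benjamini-Hochberg adjustment over all 21636 genes tested. Over all genes tested, 11% passed downward and 11.3% upward in that comparison. Of the 24, 10 also fell by more than 1 on the log2 scale, against 2.08% of all genes. Genes that passed with a log2 fold change beyond 1 in either direction are termed called. Shares of all genes set beside called counts are for the downward direction. For 29 of the 40 genes every library labelled A20-KO lay below every WT library, against 18.9% of all genes. The median log2 fold change of the 40 was -0.72, and that of all genes -0.01. No gene passed upward by limma, nor at an unadjusted p under 0.05 (0 of 40) or by limma-voom on the recovered reads (0 of 40). With values centred within bins of GC content, 24 genes passed and 2 were called, with a median of -0.53, and with a pseudocount of 1 in place of 0.1 also 2 were called.

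In A20-OE against WT 26 of the 40 passed, all downward, where 15.4% of all genes passed downward and 15.7% upward. Of these 20 were called, all downward, against 4.21% of all genes called downward. For 30 of the 40 every A20-OE library lay below every WT library, against 21.8% of all genes. The median of the 40 was -1.03, and that of all genes 0.03. In A20-OE against A20-KO 9 genes passed, all downward, against 4.54% of all genes downward and 4.43% upward. At an unadjusted p under 0.05 these counts were 16 downward and 1 upward, and by limma-voom 11 and 0. None of the 40 was called downward there by limma, at an unadjusted p under 0.05, or by limma-voom (0 each), against 0.832% of all genes downward. By limma none of the 40 was called upward either, where 337 of all 21636 genes tested were. For 19 genes every A20-OE library lay below every library labelled A20-KO, against 18% of all genes, and 4 genes lay wholly higher, against 17.4%. The median was -0.22 (0.01 over all genes). This count depended on single libraries and on GC content: 3 genes passed without A20-OE replicate 1 or without replicate 2, 4 without A20-KO replicate 1 or A20-OE replicate 3, 5 without WT replicate 2 or A20-KO replicate 2 or 3, and 18 with values centred within bins of GC content. Beyond a smaller log2 fold change of -0.5, 23 genes passed in A20-KO against WT (8.43% of all genes), 6 in A20-OE against A20-KO (3.61%), and 26 in A20-OE against WT (12.4%). Each comparison shares a group with the others, so the 3 counts are not independent.

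Over the 3 comparisons 28 of the 40 genes passed at least once and 12 did not. The 9 genes that passed in all 3 comparisons were EXO1, RAD51C, RAD54L, BLM, FANCA, FANCG, FANCD2, FANCI, and CHEK2. The 40 genes had mean levels of 0.5296 to 12.2 FPKM over the 9 libraries, and 31 to 3906 reads each in a library, so none rested on a handful of reads. Positions of genes are given on GRCh38, as in GENCODE 29. An exact permutation test of a single gene cannot give a two-sided p under 0.1 with 3 libraries against 3. RNA from whole cultures was measured, so fewer cells that express a gene and less of its RNA per cell cannot be told apart.

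**Figure D1:**
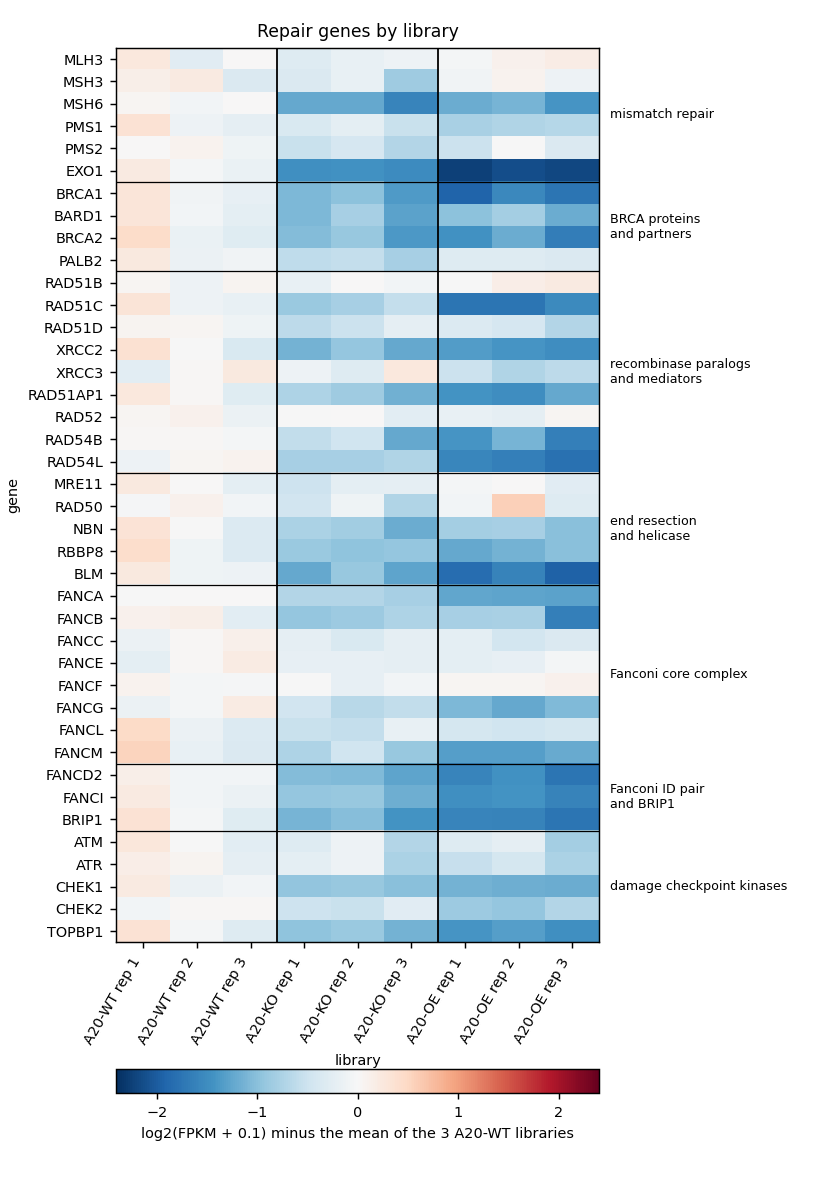
Level of each of the 40 repair genes (rows, ordered by role) in each of the 9 libraries (columns), as log2(FPKM + 0.1) minus the mean of the 3 WT libraries of that gene, with blue for lower and red for higher. EXO1 is the darkest row in A20-OE, the A20-KO and A20-OE columns are blue for most genes, and RAD51B, RAD52, and FANCF stay near white throughout.

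The order of the libraries within a group was shared by many of the genes. WT replicate 1 was the highest WT library for 27 of the 40 genes and WT replicate 3 the lowest for 26, and among libraries labelled A20-KO replicate 2 was highest for 23 and replicate 3 lowest for 26. Among A20-OE libraries replicate 2 was highest for 18 and replicate 3 lowest for 22. The summed FPKM of the 40 genes was nonetheless separate between groups, at 255 to 314 in WT, 156 to 166 in libraries labelled A20-KO, and 131 to 136 in A20-OE. Without WT replicate 1, 6 genes in place of 10 were called in A20-KO against WT.

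Mismatch repair genes fell in part. Of the 6 measured here 3 passed downward in A20-KO against WT, 1 in A20-OE against A20-KO, and 3 in A20-OE against WT. EXO1 (ENSG00000174371, chromosome 1, 241847967 to 241895148), the exonuclease that removes the strand with the error and also trims breaks, was at 15.3, 12.7, and 11.7 FPKM in WT, 4.69, 4.72, and 4.58 FPKM in libraries labelled A20-KO, and 2.71, 2.92, and 2.81 FPKM in A20-OE. Its 3 groups did not overlap, and libraries labelled A20-KO were nearly alike. EXO1 gave log2 fold changes of -1.48 in A20-KO against WT (adjusted p = 0.00013), -0.71 in A20-OE against A20-KO (adjusted p = 0.0085), and -2.19 in A20-OE against WT (adjusted p = 5.9e-06), each with a standard error of 0.11 (limma), and the value in A20-OE against WT was the lowest of the 40. MSH6 (ENSG00000116062, chromosome 2, 47695530 to 47810101), the partner that gives the mismatch sensor its affinity for single mispaired bases, was at 10.95, 10.1, and 10.6 FPKM in WT, 4.47, 4.46, and 3.47 FPKM in libraries labelled A20-KO, and 4.59, 4.81, and 3.87 FPKM in A20-OE. WT lay above the other groups, which overlapped each other. MSH6 gave -1.34 in A20-KO against WT (adjusted p = 0.00033), 0.10 in A20-OE against A20-KO (adjusted p = 0.68), and -1.24 in A20-OE against WT (adjusted p = 0.00017), each with a standard error of 0.13 (limma). The exons of MSH6 overlap FBXO11 on the opposite strand over 16.2% of their bases. FBXO11 had means of 5.55, 4.73, and 6.94 FPKM in WT, libraries labelled A20-KO, and A20-OE, and passed in no comparison. The use of strand in counting is not stated, so some reads of MSH6 are uncertain. PMS1 (ENSG00000064933, chromosome 2, 189784085 to 189877629), a MutL homologue, was at 8.46, 6.08, and 5.698 FPKM in WT, 5.11, 5.62, and 4.53 FPKM in libraries labelled A20-KO, and 3.83, 3.98, and 4.09 FPKM in A20-OE. Each group lay below the one before, but only the widest difference passed. PMS1 gave -0.38 in A20-KO against WT (adjusted p = 0.11), -0.35 in A20-OE against A20-KO (adjusted p = 0.20), and -0.73 in A20-OE against WT (adjusted p = 0.0066), each with a standard error of 0.15 (limma).

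PMS2, the endonuclease that nicks the strand with the error, had means of 5.84 ± 0.378 FPKM in WT, 3.97 ± 0.427 in libraries labelled A20-KO, and 4.79 ± 0.871 in A20-OE (SD, n = 3). Its log2 fold change was -0.55 in A20-KO against WT (adjusted p = 0.025), with a standard error of 0.14 (limma), and it no longer passed without WT replicate 1 or 2 or without A20-KO replicate 1 or 3 (adjusted p = 0.054 to 0.083, limma). Reads of PMS2 are uncertain, because transcribed near-copies were present at comparable levels: PMS2P1 was at 6.03, 4.75, and 5.06 FPKM and PMS2CL at 4.86, 3.899, and 5.12 FPKM in WT, libraries labelled A20-KO, and A20-OE. MSH3, the partner that senses longer loops, and MLH3, a MutL homologue with a further role in meiosis, passed in no comparison, with log2 fold changes of -0.46 and -0.20 in A20-KO against WT and -0.04 and 0.08 in A20-OE against WT. The level of MSH6 relative to MSH3, both per length, had a median of 16.6 (14.4 to 23.97) in WT, 10.04 (8.75 to 12.3) in libraries labelled A20-KO, and 7.59 (7.22 to 8.29) in A20-OE, with no overlap between groups. This and the other ratios below were chosen after the values were seen and are given as description.

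The BRCA proteins and their partners all fell in the libraries labelled A20-KO. All 4 passed in A20-KO against WT and 3 of 4 in A20-OE against WT. In A20-OE against A20-KO 0 of 4 passed by limma, where at an unadjusted p under 0.05 BRCA1 was lower and PALB2 higher (1 of 4 each way), and by limma-voom 1 of 4 passed. BRCA1 (ENSG00000012048, chromosome 17, 43044295 to 43170245), the ubiquitin ligase that directs a break towards recombination, was at 7.96, 6.12, and 5.71 FPKM in WT, 3.02, 3.23, and 2.47 FPKM in libraries labelled A20-KO, and 1.65, 2.15, and 1.87 FPKM in A20-OE. The groups did not overlap. BRCA1 gave -1.15 in A20-KO against WT (adjusted p = 0.0019), -0.59 in A20-OE against A20-KO (adjusted p = 0.059), and -1.74 in A20-OE against WT (adjusted p = 0.00011), each with a standard error of 0.17 (limma). BARD1 (ENSG00000138376, chromosome 2, 214725646 to 214809711), the obligate partner of BRCA1 in the ligase, was at 5.32, 4.11, and 3.66 FPKM in WT, 1.98, 2.43, and 1.71 FPKM in libraries labelled A20-KO, and 2.14, 2.41, and 1.83 FPKM in A20-OE. The libraries labelled A20-KO and A20-OE overlapped, both below WT. BARD1 gave -1.06 in A20-KO against WT (adjusted p = 0.0043), 0.06 in A20-OE against A20-KO (adjusted p = 0.87), and -0.99 in A20-OE against WT (adjusted p = 0.0034), each with a standard error of 0.18 (limma). The ratio of BRCA1 to BARD1 was 1.497 (1.49 to 1.56) in WT, 1.44 (1.33 to 1.52) in libraries labelled A20-KO, and 0.893 (0.774 to 1.02) in A20-OE, given as median and range, and A20-OE lay below both other groups.

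BRCA2 (ENSG00000139618, chromosome 13, 32315474 to 32400266), which loads the recombinase onto single-stranded DNA, was at 3.34, 2.17, and 1.97 FPKM in WT, 1.13, 1.24, and 0.877 FPKM in libraries labelled A20-KO, and 0.822, 1.001, and 0.702 FPKM in A20-OE. WT replicate 1 was well above the other WT libraries, and all 3 lay above the remaining 6. BRCA2 gave -1.11 in A20-KO against WT (adjusted p = 0.0091), -0.33 in A20-OE against A20-KO (adjusted p = 0.41), and -1.44 in A20-OE against WT (adjusted p = 0.0016), each with a standard error of 0.23 (limma). PALB2 (ENSG00000083093, chromosome 16, 23603160 to 23641310), the bridge between BRCA1 and BRCA2, was at 4.61, 3.55, and 3.699 FPKM in WT, 2.54, 2.62, and 2.21 FPKM in libraries labelled A20-KO, and 3.14, 3.14, and 3.06 FPKM in A20-OE. PALB2 differed from the others in that A20-OE lay between the other groups, with no overlap. PALB2 gave -0.66 in A20-KO against WT (adjusted p = 0.0070), 0.34 in A20-OE against A20-KO (adjusted p = 0.14), and -0.32 in A20-OE against WT (adjusted p = 0.088), each with a standard error of 0.13 (limma). BRCA2 relative to PALB2 was at a median of 0.612 in WT, 0.446 in libraries labelled A20-KO, and 0.262 in A20-OE.

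**Figure D2:**
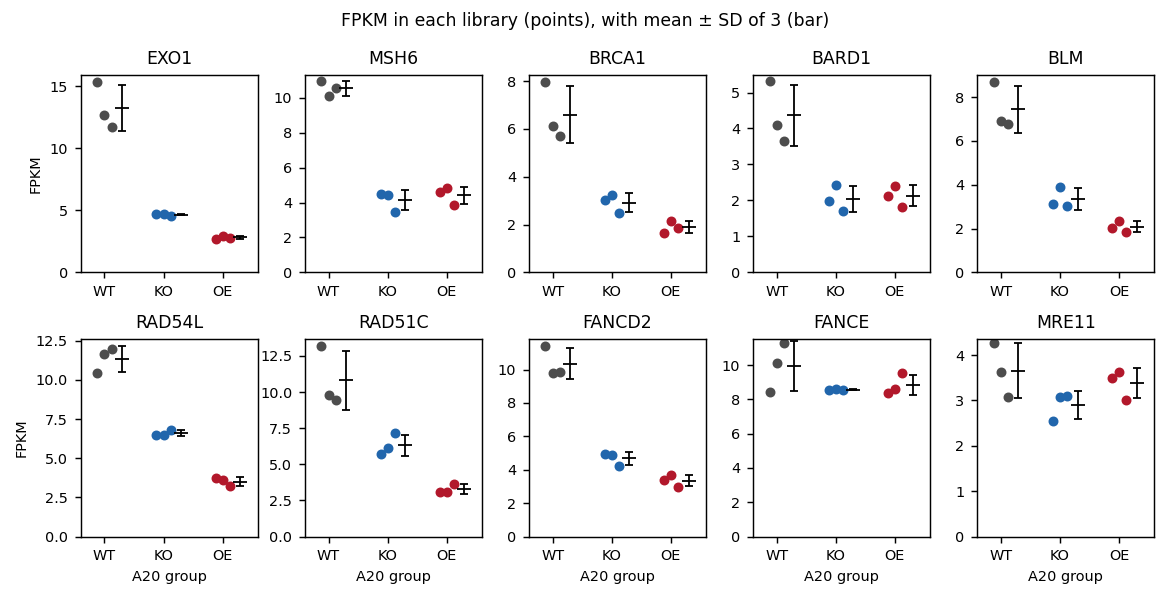
FPKM of 10 repair genes in each library (points), by A20 group, with the mean and the SD of 3 libraries beside them, on axes that start at 0. WT lies above both other groups for EXO1, MSH6, BRCA1, BARD1, BLM, RAD54L, RAD51C, and FANCD2, whereas FANCE and MRE11, chosen after their values were seen as genes that did not pass, overlap between groups.

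Among the recombinase paralogs and mediators 5 of 9 passed downward in A20-KO against WT, 2 in A20-OE against A20-KO, and 6 in A20-OE against WT. RAD51C (ENSG00000108384, chromosome 17, 58692573 to 58735611), a paralog shared by both paralog complexes, was at 13.2, 9.77, and 9.46 FPKM in WT, 5.72, 6.1003, and 7.14 FPKM in libraries labelled A20-KO, and 3.08, 3.101, and 3.66 FPKM in A20-OE. Its 3 groups were separate, with steps of similar size. RAD51C gave -0.75 in A20-KO against WT (adjusted p = 0.0079), -0.92 in A20-OE against A20-KO (adjusted p = 0.0098), and -1.68 in A20-OE against WT (adjusted p = 8.1e-05), each with a standard error of 0.15 (limma). XRCC2 (ENSG00000196584, chromosome 7, 152644779 to 152676165), a paralog of the larger complex, was at 7.53, 5.84, and 4.54 FPKM in WT, 2.61, 3.02, and 2.45 FPKM in libraries labelled A20-KO, and 2.25, 2.14, and 2.03 FPKM in A20-OE. No group overlapped another, although the step from A20-KO to A20-OE did not pass. XRCC2 gave -1.10 in A20-KO against WT (adjusted p = 0.0030), -0.31 in A20-OE against A20-KO (adjusted p = 0.30), and -1.41 in A20-OE against WT (adjusted p = 0.00044), each with a standard error of 0.18 (limma). RAD54L (ENSG00000085999, chromosome 1, 46247688 to 46278473), the motor that helps the recombinase invade the intact duplex, was at 10.4, 11.7, and 11.98 FPKM in WT, 6.49, 6.48, and 6.83 FPKM in libraries labelled A20-KO, and 3.76, 3.59, and 3.198 FPKM in A20-OE. The libraries of each group lay close together. RAD54L gave -0.77 in A20-KO against WT (adjusted p = 0.0011), -0.89 in A20-OE against A20-KO (adjusted p = 0.0022), and -1.67 in A20-OE against WT (adjusted p = 1.3e-05), each with a standard error of 0.10 (limma), and 25.1% of its exonic bases overlap LRRC41 on the opposite strand, which was not past the test in any comparison.

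RAD51AP1 (ENSG00000111247, chromosome 12, 4538798 to 4560048), a DNA-binding cofactor of the recombinase, was at 11.4, 9.67, and 7.802 FPKM in WT, 5.66, 5.23, and 4.24 FPKM in libraries labelled A20-KO, and 3.48, 3.34, and 4.02 FPKM in A20-OE. The groups were separate. RAD51AP1 gave -0.91 in A20-KO against WT (adjusted p = 0.0048), -0.47 in A20-OE against A20-KO (adjusted p = 0.11), and -1.38 in A20-OE against WT (adjusted p = 0.00033), each with a standard error of 0.16 (limma). RAD54B (ENSG00000197275, chromosome 8, 94371960 to 94475109), a relative of RAD54L, was at 1.28, 1.28, and 1.21 FPKM in WT, 0.805, 0.873, and 0.476 FPKM in libraries labelled A20-KO, and 0.411, 0.523, and 0.336 FPKM in A20-OE. WT replicates were nearly alike, and replicate 3 labelled A20-KO overlapped A20-OE. RAD54B gave -0.77 in A20-KO against WT (adjusted p = 0.048), -0.62 in A20-OE against A20-KO (adjusted p = 0.14), and -1.39 in A20-OE against WT (adjusted p = 0.0023), each with a standard error of 0.24 (limma). It stayed past the test in A20-KO against WT in only 6 of 22 alternatives (adjusted p = 0.018 to 0.16, limma or limma-voom), and leaving out any single library other than A20-KO replicate 2 ended the pass. Of the exons of RAD54B, 59.1% of the bases are shared with FSBP on the same strand, listed at 0.026, 0.0156, and 0.109 FPKM. XRCC3, the partner of RAD51C in the smaller complex, had means of 5.13 ± 0.869 FPKM in WT, 4.96 ± 1.04 in libraries labelled A20-KO, and 3.28 ± 0.225 in A20-OE (SD, n = 3), and passed only in A20-OE against WT, with -0.62 in A20-OE against WT (adjusted p = 0.024), with a standard error of 0.17 (limma). It no longer passed without WT replicate 2 or 3 or any A20-OE library (adjusted p = 0.052 to 0.081, limma). The exons of XRCC3 overlap KLC1 on the opposite strand over 76.7% of their bases, and the use of strand in counting is not stated, so its reads are uncertain. RAD51B, RAD51D, and RAD52 passed in no comparison, with log2 fold changes of -0.08, -0.46, and -0.08 in A20-KO against WT and 0.13, -0.48, and -0.11 in A20-OE against WT.

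Of the 5 end resection and helicase genes, BLM, RBBP8, and NBN passed downward in both comparisons with WT, and BLM alone in A20-OE against A20-KO. BLM (ENSG00000197299, chromosome 15, 90717327 to 90816165), the helicase lost in Bloom syndrome, which resolves joined molecules, was at 8.69, 6.92, and 6.76 FPKM in WT, 3.13, 3.91, and 3.01 FPKM in libraries labelled A20-KO, and 2.01, 2.36, and 1.86 FPKM in A20-OE. Its groups did not overlap. BLM gave -1.13 in A20-KO against WT (adjusted p = 0.0013), -0.66 in A20-OE against A20-KO (adjusted p = 0.033), and -1.79 in A20-OE against WT (adjusted p = 6.0e-05), each with a standard error of 0.15 (limma). RBBP8 (ENSG00000101773, chromosome 18, 22798261 to 23026488), which encodes CtIP, the starter of resection, was at 24.5, 16.9, and 14.6 FPKM in WT, 9.83, 9.26, and 9.49 FPKM in libraries labelled A20-KO, and 7.74, 8.25, and 9.09 FPKM in A20-OE. WT replicate 1 was the highest value, and the other groups lay below all WT libraries. RBBP8 gave -0.93 in A20-KO against WT (adjusted p = 0.0054), -0.19 in A20-OE against A20-KO (adjusted p = 0.53), and -1.12 in A20-OE against WT (adjusted p = 0.0013), each with a standard error of 0.17 (limma).

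NBN (ENSG00000104320, chromosome 8, 89933336 to 90003228), the subunit of the break sensor that recruits ATM, was at 15.9, 12.6, and 10.1 FPKM in WT, 7.41, 6.998, and 5.47 FPKM in libraries labelled A20-KO, and 7.09, 7.22, and 6.24 FPKM in A20-OE. Both other groups lay below WT and overlapped each other. NBN gave -0.93 in A20-KO against WT (adjusted p = 0.0060), 0.06 in A20-OE against A20-KO (adjusted p = 0.88), and -0.88 in A20-OE against WT (adjusted p = 0.0051), each with a standard error of 0.18 (limma). The nuclease MRE11 and the ATPase RAD50, the partners of NBN in the sensor, passed in no comparison. MRE11 had means of 3.66 ± 0.603 FPKM in WT, 2.91 ± 0.308 in libraries labelled A20-KO, and 3.38 ± 0.331 in A20-OE (SD, n = 3), and RAD50 had 0.657 ± 0.0467 FPKM in WT, 0.471 ± 0.123 in libraries labelled A20-KO, and 0.719 ± 0.266 in A20-OE (SD, n = 3). NBN relative to MRE11 was at a median of 3.46 in WT, 2.28 in libraries labelled A20-KO, and 2.03 in A20-OE. RAD50 shares 79.7% of its exonic bases with AC116366.3 on the same strand, a gene model listed near 0, so its level is uncertain.

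The Fanconi core complex, the ligase that acts on the FANCD2 and FANCI pair, moved unevenly. Of its 8 genes 3 passed downward in A20-KO against WT, 2 in A20-OE against A20-KO, and 4 in A20-OE against WT. FANCA (ENSG00000187741, chromosome 16, 89737549 to 89816657), a scaffold subunit, was at 12.9, 13.1, and 13.1 FPKM in WT, 7.98, 8.001, and 7.43 FPKM in libraries labelled A20-KO, and 5.404, 5.33, and 5.27 FPKM in A20-OE. WT libraries were within a narrow range and the 3 groups were separate. FANCA gave -0.73 in A20-KO against WT (adjusted p = 0.00052), -0.54 in A20-OE against A20-KO (adjusted p = 0.0064), and -1.27 in A20-OE against WT (adjusted p = 1.4e-05), each with a standard error of 0.08 (limma). The exons of FANCA overlap ZNF276 on the opposite strand over 23.6% of their bases, and ZNF276 rose by 0.66 in A20-KO against WT (adjusted p = 0.0013, limma), opposite to FANCA. FANCG (ENSG00000221829, chromosome 9, 35073835 to 35080016), a scaffold partner of FANCA, was at 14.2, 15.3, and 18.1 FPKM in WT, 11.5, 9.88, and 10.5 FPKM in libraries labelled A20-KO, and 7.44, 6.65, and 7.53 FPKM in A20-OE. WT replicate 3 was the highest and the groups were separate. FANCG gave -0.57 in A20-KO against WT (adjusted p = 0.0079), -0.55 in A20-OE against A20-KO (adjusted p = 0.022), and -1.12 in A20-OE against WT (adjusted p = 0.00015), each with a standard error of 0.11 (limma). FANCM (ENSG00000187790, chromosome 14, 45135940 to 45200890), the translocase that anchors the complex to chromatin, was at 2.86, 1.73, and 1.51 FPKM in WT, 1.13, 1.39, and 0.993 FPKM in libraries labelled A20-KO, and 0.722, 0.719, and 0.791 FPKM in A20-OE. Its groups were separate but WT spread widely. FANCM gave -0.71 in A20-KO against WT (adjusted p = 0.060), -0.58 in A20-OE against A20-KO (adjusted p = 0.16), and -1.29 in A20-OE against WT (adjusted p = 0.0031), each with a standard error of 0.23 (limma).

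FANCB had means of 1.88 ± 0.278 FPKM in WT, 0.996 ± 0.0705 in libraries labelled A20-KO, and 0.871 ± 0.292 in A20-OE (SD, n = 3), and passed in both comparisons with WT, with -0.84 in A20-KO against WT (adjusted p = 0.035) and -1.07 in A20-OE against WT (adjusted p = 0.0092), each with a standard error of 0.24 (limma). In A20-KO against WT FANCB stayed past the test in 13 of 23 alternatives (adjusted p = 0.010404 to 0.13, limma or limma-voom), and no longer passed with a GC correction, with no filter, or without WT replicate 1 or 2 or any library labelled A20-KO. FANCC, FANCE, FANCF, and FANCL passed in no comparison. Their log2 fold changes in A20-KO against WT were -0.27, -0.20, -0.09, and -0.43, and in A20-OE against WT -0.34, -0.16, 0.07, and -0.44. FANCE, the subunit that contacts FANCD2, was at 9.94 ± 1.44 FPKM in WT, 8.56 ± 0.0283 in libraries labelled A20-KO, and 8.83 ± 0.595 in A20-OE (SD, n = 3), a level close to that of FANCD2 in WT and above it in the other groups. FANCL, the catalytic subunit, was at 7.97 ± 2.39 FPKM in WT, 5.79 ± 0.906 in libraries labelled A20-KO, and 5.68 ± 0.142 in A20-OE (SD, n = 3), with WT replicate 1 above the rest, and 18.7% of its exonic bases overlap VRK2 on the opposite strand.

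Each of the substrates of the core complex and the helicase BRIP1 fell in both comparisons with WT. All 3 were called in A20-KO against WT and in A20-OE against WT, and 2 of 3 passed in A20-OE against A20-KO. FANCD2 (ENSG00000144554, chromosome 3, 10026414 to 10101930) was at 11.4, 9.81, and 9.83 FPKM in WT, 4.96, 4.88, and 4.26 FPKM in libraries labelled A20-KO, and 3.37, 3.69, and 2.99 FPKM in A20-OE. The groups were separate. FANCD2 gave -1.12 in A20-KO against WT (adjusted p = 0.00047), -0.48 in A20-OE against A20-KO (adjusted p = 0.041), and -1.60 in A20-OE against WT (adjusted p = 3.2e-05), each with a standard error of 0.12 (limma). FANCI (ENSG00000140525, chromosome 15, 89243949 to 89317261), which receives ubiquitin together with FANCD2, was at 20.3, 16.6, and 15.98 FPKM in WT, 9.14, 9.33, and 7.76 FPKM in libraries labelled A20-KO, and 6.23, 6.46, and 5.73 FPKM in A20-OE. FANCI likewise showed no overlap. FANCI gave -1.0004 in A20-KO against WT (adjusted p = 0.00081), -0.50 in A20-OE against A20-KO (adjusted p = 0.037), and -1.50 in A20-OE against WT (adjusted p = 4.5e-05), each with a standard error of 0.12 (limma). The ratio of FANCI to FANCD2 had medians of 1.698 (1.63 to 1.77) in WT, 1.84 (1.82 to 1.91) in libraries labelled A20-KO, and 1.85 (1.75 to 1.92) in A20-OE, with WT wholly below the libraries labelled A20-KO and A20-OE overlapping both. BRIP1 (ENSG00000136492, chromosome 17, 61681266 to 61863521), a helicase that binds BRCA1, was at 7.17, 5.42, and 4.59 FPKM in WT, 2.56, 2.71, and 2.01 FPKM in libraries labelled A20-KO, and 1.82, 1.795, and 1.596 FPKM in A20-OE. All 3 groups were apart. BRIP1 gave -1.19 in A20-KO against WT (adjusted p = 0.0022), -0.45 in A20-OE against A20-KO (adjusted p = 0.15), and -1.64 in A20-OE against WT (adjusted p = 0.00021), each with a standard error of 0.18 (limma).

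The damage checkpoint genes, the kinases ATM, ATR, CHEK1, and CHEK2 and the ATR activator TOPBP1, passed downward for 3 of 5 in A20-KO against WT, for 1 in A20-OE against A20-KO, and for 4 in A20-OE against WT. CHEK1 (ENSG00000149554, chromosome 11, 125625136 to 125676255), the kinase that ATR activates at stalled forks, was at 10.7, 8.29, and 8.703 FPKM in WT, 4.74, 4.82, and 4.53 FPKM in libraries labelled A20-KO, and 4.102, 4.02, and 3.95 FPKM in A20-OE. The groups did not overlap, and the lower groups lay close to each other. CHEK1 gave -0.95 in A20-KO against WT (adjusted p = 0.00071), -0.22 in A20-OE against A20-KO (adjusted p = 0.26), and -1.17 in A20-OE against WT (adjusted p = 0.00010), each with a standard error of 0.11 (limma). TOPBP1 (ENSG00000163781, chromosome 3, 133598175 to 133662380) was at 19.9, 15.1, and 12.5 FPKM in WT, 7.94, 8.304, and 7.03 FPKM in libraries labelled A20-KO, and 5.74, 6.14, and 5.58 FPKM in A20-OE. WT replicate 1 was the highest and the groups were separate. TOPBP1 gave -0.998 in A20-KO against WT (adjusted p = 0.0027), -0.41 in A20-OE against A20-KO (adjusted p = 0.15), and -1.40 in A20-OE against WT (adjusted p = 0.00024), each with a standard error of 0.16 (limma). CHEK2 (ENSG00000183765, chromosome 22, 28687743 to 28742422), the kinase that ATM activates at breaks, was at 9.39, 9.94, and 9.996 FPKM in WT, 6.91, 6.74, and 8.04 FPKM in libraries labelled A20-KO, and 5.32, 5.08, and 5.96 FPKM in A20-OE. Its groups were separate, with smaller steps. CHEK2 gave -0.43 in A20-KO against WT (adjusted p = 0.018), -0.40 in A20-OE against A20-KO (adjusted p = 0.047), and -0.83 in A20-OE against WT (adjusted p = 0.00045), each with a standard error of 0.10 (limma). In A20-KO against WT CHEK2 no longer passed without WT replicate 2 or A20-KO replicate 1 or 2 (adjusted p = 0.057 to 0.067, limma), and in A20-OE against A20-KO it passed in 12 of 23 alternatives. ATR had means of 3.14 ± 0.427 FPKM in WT, 2.43 ± 0.557 in libraries labelled A20-KO, and 2.08 ± 0.253 in A20-OE (SD, n = 3), and passed only in A20-OE against WT, with -0.57 in A20-OE against WT (adjusted p = 0.048), with a standard error of 0.19 (limma). ATR no longer passed without WT replicate 1 or 2, A20-KO replicate 1, or any A20-OE library (adjusted p = 0.067 to 0.15, limma). ATM had means of 1.86 ± 0.361 FPKM in WT, 1.41 ± 0.295 in libraries labelled A20-KO, and 1.35 ± 0.308 in A20-OE (SD, n = 3), and passed in no comparison, with -0.38 in A20-KO against WT (adjusted p = 0.27) and -0.45 in A20-OE against WT (adjusted p = 0.18), each with a standard error of 0.23 (limma).

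**Figure D3:**
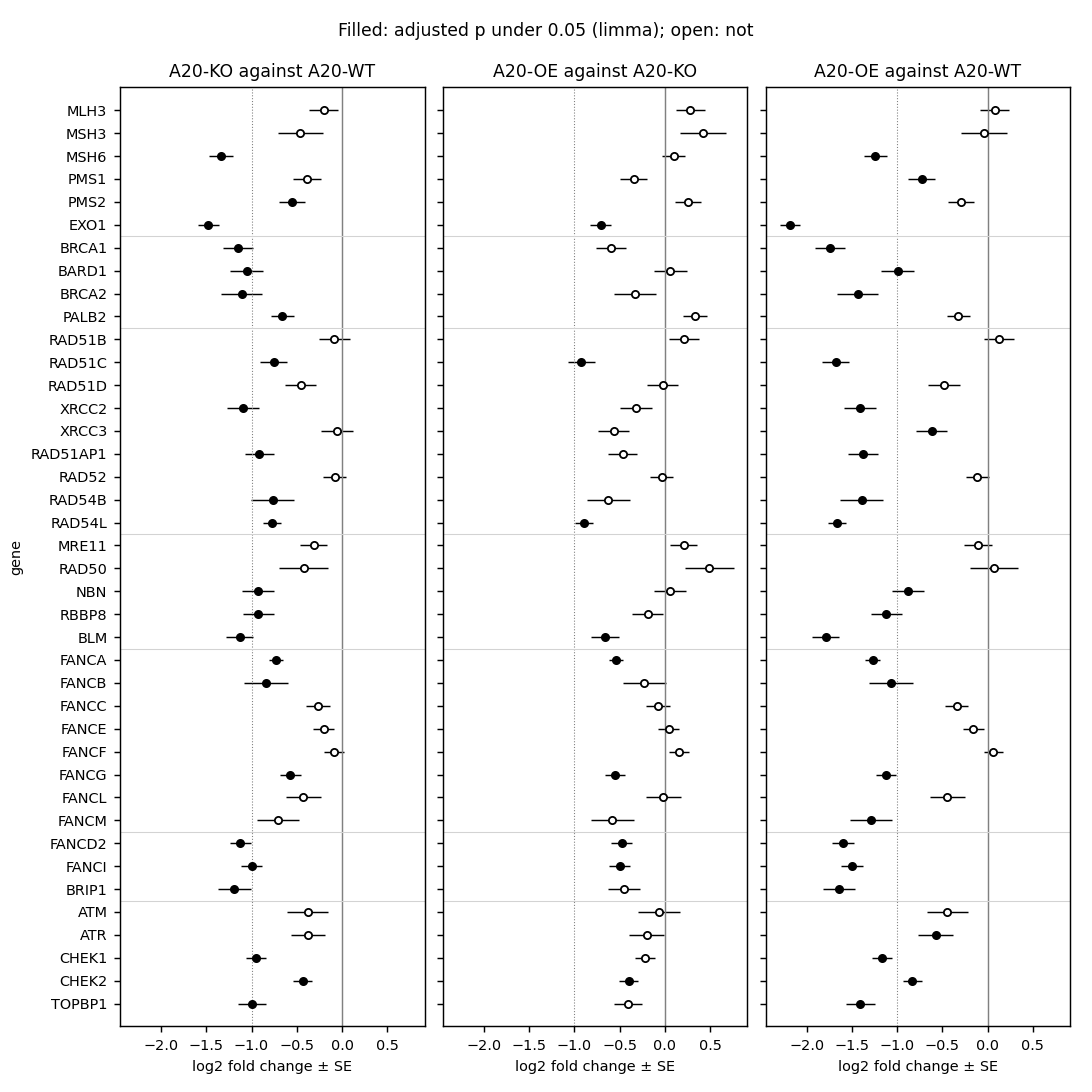
Log2 fold change of each repair gene with its standard error in the 3 comparisons, filled where the adjusted p was under 0.05, with a dotted line at -1. In the left and right panels 24 and 26 points are filled, in the middle panel 9, and all filled points lie left of 0.

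By role, median log2 fold changes in A20-KO against WT were -1.12 for FANCD2, FANCI, and BRIP1, -1.08 for the BRCA proteins and partners, -0.93 for end resection and helicase genes, -0.75 for the recombinase paralogs and mediators, -0.50 for mismatch repair, -0.50 for the Fanconi core complex, and -0.43 for the checkpoint genes. In A20-OE against WT they were -1.60, -1.22, -0.88, -1.38, -0.51, -0.76, and -0.83 in the same order. These medians are over 3 to 9 genes and their differences were not tested. Within groups the 40 genes varied with a median coefficient of variation of 14.5% in WT, 10.8% in libraries labelled A20-KO, and 8.24% in A20-OE.

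**Figure D4:**
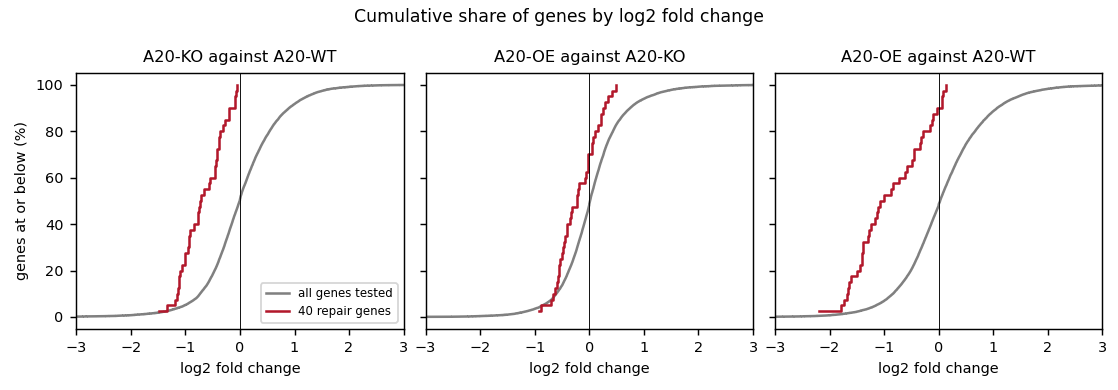
Cumulative share of genes at or below each log2 fold change, for the 40 repair genes (red) and all 21636 genes tested (grey). At a share of 50% the red curve lies left of the grey in each panel, with medians of -0.72, -0.22, and -1.03 for the repair genes against -0.01, 0.01, and 0.03.

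Other genes of the same pathways were read from lists of fixed membership, also chosen with earlier results of these data known. Over all genes tested, 11% passed downward and 11.3% upward in A20-KO against WT. These shares were 4.54% and 4.43% in A20-OE against A20-KO, and 15.4% and 15.7% in A20-OE against WT. Of 14 further Fanconi pathway genes 4 passed downward and 0 upward in A20-KO against WT and 5 and 0 in A20-OE against WT, among them USP1, which removes ubiquitin from FANCD2, with means of 18.9, 8.34, and 7.58 FPKM in WT, libraries labelled A20-KO, and A20-OE. UBE2T, the conjugating enzyme that works with FANCL, fell by 1.26 on the log2 scale in A20-OE against WT (SE 0.13, adjusted p = 0.00016, limma), from 35.9 to 14.9 FPKM. Of 29 further recombination genes tested 14 passed downward and 3 upward, then 17 and 1, and RAD18, a ligase of stalled forks, had means of 5.79, 2.34, and 2.301 FPKM. Of 25 genes of break signalling and end protection 11 passed downward and 1 upward in both comparisons with WT, including CLSPN, the mediator of CHEK1, with 9.89, 3.83, and 2.47 FPKM. Of 14 further mismatch repair genes 9 passed downward and 1 upward, then 12 and 1, and PCNA, the sliding clamp, had means of 269, 119, and 78.7 FPKM.

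In A20-OE against A20-KO the same lists passed downward for 2 of 14, 7 of 29, 4 of 25, and 7 of 14 genes, and upward for 0, 0, 1, and 0. LIG1, the ligase that seals the repaired strand, fell there by 0.79 on the log2 scale (SE 0.12, adjusted p = 0.0078, limma), and SHLD2, a protector of ends from resection, rose by 0.57 (SE 0.10, adjusted p = 0.014, limma). End joining, the repair that needs no copy, passed downward for 5 of 13 genes in A20-KO against WT, 2 of 13 in A20-OE against A20-KO, and 6 of 13 in A20-OE against WT, and upward for 0. XRCC5, which encodes a subunit of the end-binding Ku dimer, had means of 121, 66.4, and 62.7 FPKM. Base excision repair passed downward for 5, 7, and 9 of 18 genes and upward for 0, with FEN1, the flap nuclease, at 74.5, 42.7, and 23.1 FPKM. Nucleotide excision repair was mixed, with 7, 2, and 7 of 19 genes downward and 2, 1, and 2 upward, and ERCC1, a nuclease subunit, rose by 1.06 on the log2 scale in A20-KO against WT (SE 0.15, adjusted p = 0.0016, limma).

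Where 0 genes of a list passed upward by limma, at most 2 did so at an unadjusted p under 0.05 (base excision repair in A20-KO against WT) and at most 1 by limma-voom.

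Genes of proliferating cells moved with the repair genes. Of 35 replication and G1/S genes 31, 19, and 35 passed downward and 0 upward in the 3 comparisons, with medians of -1.07, -0.52, and -1.55. Of 20 mitosis genes 18, 5, and 20 passed downward and 0 upward, with medians of -0.78, -0.36, and -1.10. MCM10, a replication initiation factor, had means of 15.5, 4.85, and 3.304 FPKM in WT, libraries labelled A20-KO, and A20-OE, and CCNA2, a cyclin of S and G2 phase, 48.7, 19.5, and 14.98 FPKM. The part of this shift in the values of the repair genes was not tested.

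**Figure D5:**
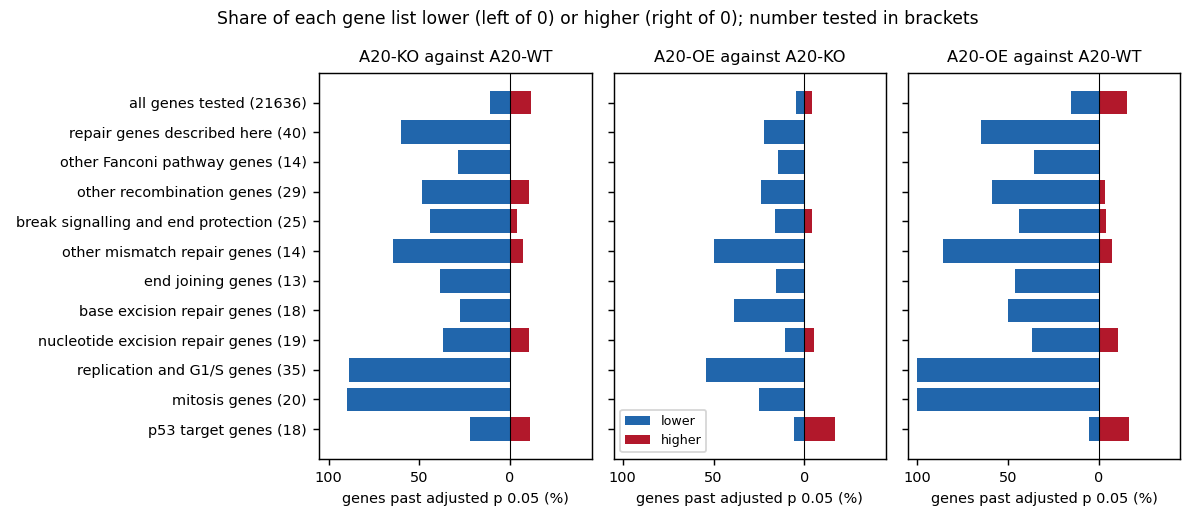
Share of each gene list, in percent of the genes tested, that passed an adjusted p of 0.05 downward (left of 0) or upward (right of 0) in the 3 comparisons. Replication and mitosis genes reach 35 of 35 and 20 of 20 downward in A20-OE against WT, where 26 of the 40 repair genes passed.

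Several repair genes share a start region with a gene on the opposite strand. Within 1000 bases of the starts of the repair genes 24 such neighbours were annotated, of which 18 were tested. Of the 18, 3 passed downward and 0 upward in A20-KO against WT, 1 and 1 in A20-OE against A20-KO, and 6 and 1 in A20-OE against WT. Over all genes tested, 11%, 4.54%, and 15.4% passed downward in these comparisons, and 11.3%, 4.43%, and 15.7% upward. With 18 neighbours these counts are given as description only. NBR1, an autophagy receptor whose start lies 236 bases from that of BRCA1, had means of 8.52, 9.86, and 14.7 FPKM. NBR1 rose by 0.78 in A20-OE against WT (adjusted p = 0.0012, limma), the comparison in which BRCA1 fell by 1.74. DCTN5, 82 bases from PALB2, fell with it in A20-KO against WT by 0.61 (adjusted p = 0.0050, limma). NPAT, a histone gene activator 158 bases from ATM, fell by 0.78 (adjusted p = 0.031, limma) while ATM did not pass.

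Promoter motifs were counted beside these values. Of the 9 genes with an E2F match 7 were among the 21 with a promoter window that passed in A20-KO against WT (EXO1, FANCA, FANCD2, MSH6, PMS2, TOPBP1, and XRCC2), and 2 were among the 16 that did not (FANCC and MSH3). BRCA1, BRIP1, and CHEK1, which also fell, held no match, which says only that these letters are not in the window searched. CCAAT was found in 17 of the 37 (45.9%, all promoters 39.7%), the GC box GGGGCGGGG in 11 (29.7%, all 18.5%), the CHR element TTTGAA in 3 (8.11%, all 18.2%), and the NRF1 site in 2 (5.41%, all 1.52%), each on both strands and with any overlap between motifs left in. These shares are a description and their difference was not tested.

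The base composition of the repair genes was low in GC, with a median of 41.7% against 48.8% of all genes tested, and their median exonic length of 6357 bases exceeded the 3138 bases of all genes. Across 21624 genes, which are not independent replicates, the log2 fold change correlated with GC content at r = 0.31 in A20-KO against WT, -0.18 in A20-OE against A20-KO, and 0.13 in A20-OE against WT, and with log length at -0.01, -0.07, and -0.06. Across the 40 repair genes alone, which share the same libraries, the correlation with GC content was 0.43, -0.15, and 0.17. Repair genes that passed in A20-KO against WT had a median GC content of 41.7% (quartiles 37.9% and 43.5%), and those that did not 41.8% (39.7% and 47.4%). FANCA and FANCG, with GC contents of 55.4% and 58.1%, passed in all 3 comparisons, whereas FANCE, at 57.9%, passed in none.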

How the data were processed

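The authors sequenced poly-A RNA of HCT116 cells with paired-end reads, counted reads on genes (featureCounts 1.5.0-p3, after HISAT2 2.0.5 per the submitters' processing notes), tested them with DESeq2, and deposited FPKM with a length for each gene. The deposited FPKM were used as they stand, and all 9 sample columns were mapped to samples by name. The build and the use of strand are not given in the sources used here, and the gene coordinates are those of GENCODE 29 (GRCh38) for 100% of the genes. Groups came from the genotype labels, and A20-OE was taken to be the cell the study calls A20-KO-rescue, which the labels do not state.

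FPKM are not counts, so limma (3.58.1, R 4.3.3) was run on log2(FPKM + 0.1), letting the variance follow the mean level, with the 3 groups in a single fit. It covered the 21636 genes whose FPKM averaged 0.1 or more, a filter all 40 repair genes passed. Fold changes on this scale understate those of low genes. A gene passed at an adjusted p under 0.05, and was called if its log2 fold change was also beyond 1 in either direction, as in the study's methods. Whole reads were recovered from FPKM and length (100% of values within 0.01 of a whole number) and gave depth and the limma-voom alternative. Their totals were 0.95 to 1.066 times the depth the FPKM imply. Reads carry no molecular identifiers. The fit was tested on simulated data.

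The repair genes, the other gene lists (further Fanconi, recombination, break signalling, mismatch repair, end joining, base excision, nucleotide excision, replication, mitosis, and p53 target genes, and cell type markers) and the motifs were chosen with earlier results of these data known. Values in every library are printed for the 24 repair genes with the smallest adjusted p in any comparison. Genes named from each other list, cell type markers aside, are among the 3 with the smallest adjusted p in a comparison described. The alternatives concerned the pseudocount, the filter, the scaling, the samples in the fit, the replicate block, the variance trend, the fold threshold, limma-voom, GC content (50 bins), gene length, and each library left out. Length, alone and with GC content, was added after seeing the data.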

Additional observations from a re-analysis of the deposited data

How the results depend on the processing

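No result reversed under any alternative. Of the genes that passed, 20 of 24 in A20-KO against WT, 3 of 9 in A20-OE against A20-KO, and 24 of 26 in A20-OE against WT stayed past an adjusted p of 0.05 in every alternative that gave a value (22 or 23). The others stayed past it in 20 (CHEK2), 13 (FANCB), 18 (PMS2), and 6 (RAD54B) in the first, in 14 (BLM), 12 (CHEK2), 13 (FANCD2), 16 (FANCG), 14 (FANCI), and 21 (RAD51C) in the second, and in 14 (ATR) and 16 (XRCC3) in the third. In A20-KO against WT, where 10 genes were called, 23 were called when a log2 fold change beyond 0.5 sufficed, against 8.43% of all genes downward. With a pseudocount of 1, a GC correction, a GC correction with the replicate block, or a GC and length correction 2 were called, and the median was -0.49 with the last. In A20-OE against A20-KO, where 9 passed and 0 were called, 4 passed with no filter on low values and 4 with no variance trend, 18 with a GC correction, 18 with it and the replicate block, and 20 with GC and length. Called genes there numbered 6 at the lower fold threshold, against 3.61% of all genes downward, and 1 under each of those 3 corrections. The cause of these shifts was not tested, except that a pseudocount of 1 shrinks the fold of low genes, as in the median of -0.76 in A20-OE against WT.

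With 1 library left out, 20 to 24 genes passed and 6 to 14 were called in A20-KO against WT, 3 to 13 passed and 0 to 1 were called in A20-OE against A20-KO, and 24 to 27 passed and 19 to 22 were called in A20-OE against WT. The lowest called count, 6, was without WT replicate 1, and the single call was without A20-OE replicate 3. Deviations of same-numbered libraries correlated at -0.027 to 0.12 (mean 0.037), with 1 of 9 pairs above 0.1. Those of different-numbered libraries correlated at -0.13 to 0.072 (mean -0.018), with 0 of 18 pairs above 0.1. Of the 9 libraries 4 correlated best with their own number, so pairing by replicate number was at most weak. With the replicate block 24, 9, and 27 genes passed and 10, 0, and 20 were called in the 3 comparisons. With 3 libraries a group and 31 to 3906 reads per gene and library, a small difference in a low gene such as MSH3 or RAD50 was not detectable.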

Other observations

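Targets of p53, which answer to DNA damage, showed no common direction. Of 18 measured, 4 passed downward and 2 upward in A20-KO against WT, 1 and 3 in A20-OE against A20-KO, and 1 and 3 in A20-OE against WT, with medians of -0.09, 0.20, and -0.01. Over all genes tested, 11%, 4.54%, and 15.4% passed downward and 11.3%, 4.43%, and 15.7% upward. The upward counts in both comparisons with WT thus lay near the share of all genes. The 4 of 18 downward in A20-KO against WT and the 3 of 18 upward in A20-OE against A20-KO lay above it. With 18 genes these counts are given as description only. GDF15, a secreted stress factor, had means of 139 FPKM in WT, 348 in libraries labelled A20-KO, and 138 in A20-OE. Its log2 fold change was 1.35 in A20-KO against WT (SE 0.20, adjusted p = 0.0019, limma) and -1.34 in A20-OE against A20-KO (SE 0.20, adjusted p = 0.0064, limma). CDKN1A, the inhibitor of cell cycle kinases, rose by 0.62 in A20-OE against WT (SE 0.13, adjusted p = 0.0059, limma), from 88.4 to 135 FPKM. Other targets fell. MDM2 gave -0.70 in A20-KO against WT (SE 0.16, adjusted p = 0.013, limma), and BAX -0.87 in A20-OE against WT (SE 0.19, adjusted p = 0.0084, limma).

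Of 9 colorectal epithelial markers tested 4 passed upward and 0 downward in A20-KO against WT by limma (6 and 0 at an unadjusted p under 0.05, 5 and 0 by limma-voom). In A20-OE against WT 5 passed upward and 0 downward by limma (7 and 1 at an unadjusted p under 0.05, 7 and 1 by limma-voom). KRT19, a keratin of simple epithelium, had means of 434, 878, and 903 FPKM in WT, libraries labelled A20-KO, and A20-OE, and CLDN4, a tight junction protein, 36.2, 85.4, and 104 FPKM. The markers did not all rise: EPCAM had means of 130, 117, and 105 FPKM, and CDX2 5.73, 5.56, and 5.88 FPKM. Of the other cell type markers only COL1A1, a collagen, was at 1 FPKM or more, with 5.32, 13.3, and 11.7 FPKM.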
